A study of Homo sapiens with 3 samples.

Results

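HULC, MALAT1, NEAT1, GAS5, SNHG1 and SNHG8 are long non-coding RNAs, and their levels were followed in 3 RNA-seq libraries of Hep-G2, an established human hepatoma line. They are the 6 rows of the expression table that carry these symbols, of 21572 rows in all. HULC was included because its level was high in 1 of the 3 libraries, so its own levels are a description and support nothing; the others stand beside it as well-expressed RNAs of the same class. The libraries were sh#7 and sh#2, which carry different short hairpin RNAs (shRNAs) against FTO (TRCN0000246247 and TRCN0000255402), and a control with the shRNA SHC002, described by the submitters as a scramble. All cells were at passage 21, grown in DMEM with serum, and total RNA was treated with DNase before library preparation. FTO encodes a demethylase that removes N6-methyladenosine (m6A) from RNA, and the series design gives sh#7 as the more efficient hairpin. Each group held 1 library, no source says how many clones a line came from, and no value below has a replicate error.

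Long non-coding RNAs act without being translated, and several of the best known stay in the nucleus. HULC is a spliced, cytoplasmic RNA first described as strongly raised in liver cancer; the transcription factor CREB has been reported at its promoter, and the RNA-binding protein IGF2BP1 recruits the CCR4-NOT deadenylase, through CNOT1, to destabilise it. MALAT1 sits in nuclear speckles and NEAT1 is the scaffold of paraspeckles, and their genes are neighbours. GAS5, SNHG1 and SNHG8 are host genes: their introns hold small nucleolar RNAs (snoRNAs), which guide modification of ribosomal RNA, while the spliced host transcripts of GAS5 and SNHG1 are known targets of nonsense-mediated decay.

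Levels are FPKM (fragments per kilobase of transcript per M mapped fragments), so they are per length and can be set side by side between genes, with less certainty for very short RNAs. Differences are in log2(FPKM + 1), which understates the change of low genes, and the 11069 genes whose mean reached 1 FPKM were compared, all 6 members included. Depth, estimated from the steps that single fragments leave in low values, was about 41.7 M fragments in sh#7, 43.1 M in sh#2 and 41.7 M in the control. Only steps near an assumed depth were searched, so the estimate could not fall far from that depth and does not test it. FTO was at 2.55 FPKM in sh#7, 5.29 FPKM in sh#2 and 9.02 FPKM in the control, an order that follows the labels. All 11 hepatocyte markers were present at 1 FPKM or more in every library, but their summed level was 12322 FPKM in sh#7, 20587 FPKM in sh#2 and 26778 FPKM in the control. Blood markers summed to at most 0.923 FPKM and endothelial markers to at most 0.196 FPKM in any library. Fibroblast and stellate markers summed to 1.19 FPKM in sh#7, 1.79 FPKM in sh#2 and 3.77 FPKM in the control, with 0 of 4 at 1 FPKM or more in every library. Neural markers summed to 4.28, 1.91 and 4.24 FPKM, with 1 of 3 at that level. The part that the cells behind these markers play in the values below was not tested, and in bulk RNA fewer cells of a kind and less RNA per cell cannot be told apart. The median difference of all compared genes was 0.16 for sh#7 against the control, 0.10 for sh#2 against the control and 0.05 for sh#7 against sh#2, and directions are given relative to it where it matters.

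HULC was at 3.79 FPKM in sh#7, 48.0 FPKM in sh#2 and 4.39 FPKM in the control. Only the sh#2 library was high, and the sh#7 and control levels lay close together. This corresponds to about 158, 2069 and 183 fragments for each kilobase of transcript in sh#7, sh#2 and the control. The sh#2 level was 10.9 times the control level (95% interval 8.29 to 14.7), and the sh#7 level was 0.864 times the control level (0.567 to 1.29). These intervals take a transcript of 0.3 kb for every member, which makes them wide for the longer RNAs, and they cover counting error only. Like the fragment numbers, they rest on the estimated depth. The log2 difference was 3.19 for sh#2 against the control, -0.17 for sh#7 against the control and -3.35 for sh#7 against sh#2. Among all compared genes HULC held rank 2 from the top in sh#2 against the control, where 56 genes (0.506%) were higher by at least 2-fold; since HULC was chosen on this contrast, nothing is read from that rank. The comparisons of sh#7 and of sh#2 share the control library here and throughout.

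In the ranking by level of the 232 compared genes that RefSeq annotates as long non-coding, HULC held place 102 in sh#7, 12 in sh#2 and 91 in the control. Its span on chromosome 6 overlaps a larger non-coding gene of GENCODE 29, AL591485.1, for which 113 transcripts are annotated. The non-coding gene AL355499.2 and the annotation RF02101 also overlap HULC, and strands were not compared. The table has 1 value for HULC, so fragments of the short RNA and of longer transcripts across it cannot be told apart.

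**Figure D1:**
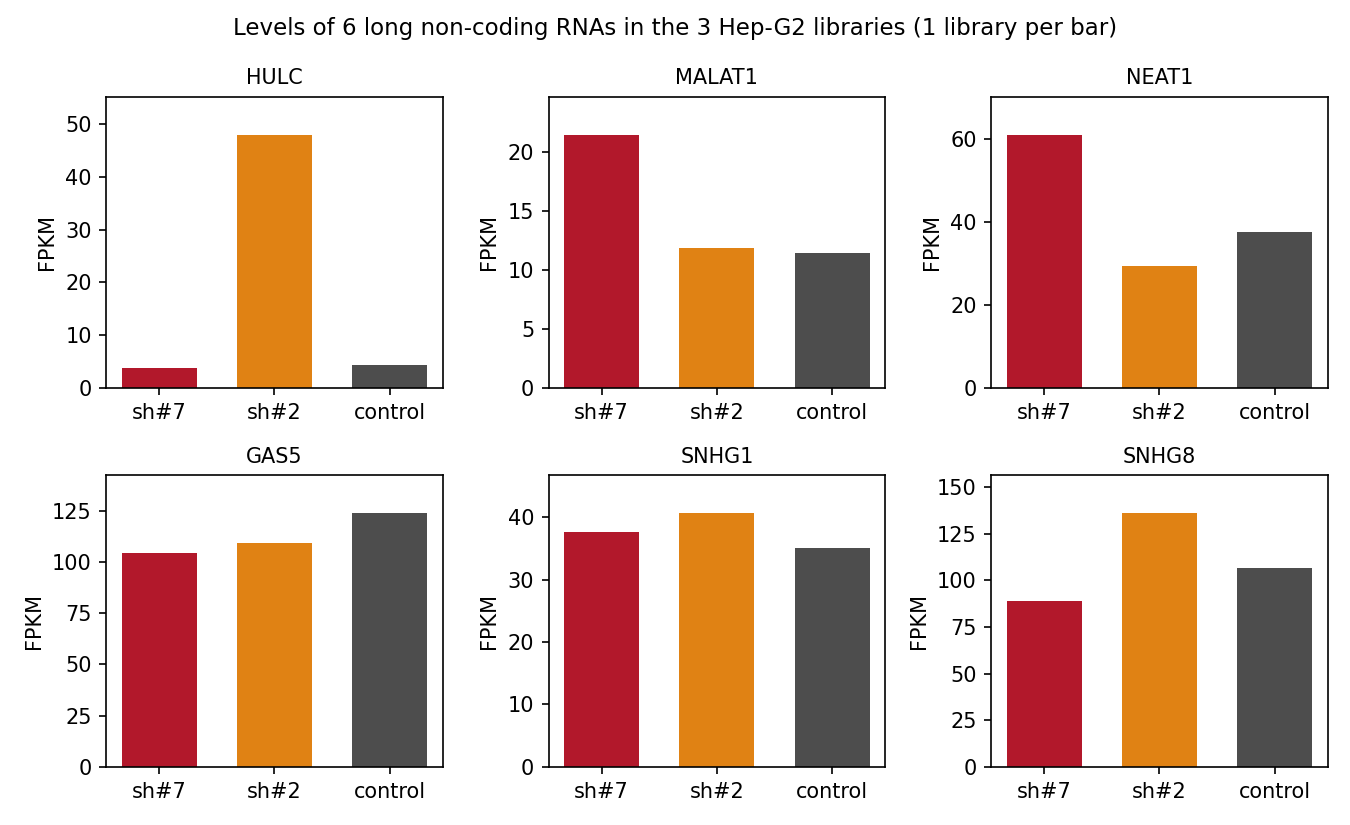
Level in FPKM (vertical axis, a separate linear scale from 0 for each RNA) in the sh#7, sh#2 and control libraries, with 1 library per bar and no error bars. HULC reaches 48.0 FPKM in sh#2 only, MALAT1 and NEAT1 are highest in sh#7 at 21.5 and 61.2 FPKM, and GAS5 and SNHG1 differ little between libraries.

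Of the 3 nearest compared genes on each side of HULC, 4 of 6 were highest in sh#2, by far less than HULC. The share of all compared genes that were highest in sh#2 was not computed, so nothing is read from this count. SLC35B3, a nucleotide sugar transporter gene, was at 11.2 FPKM in sh#7, 10.4 FPKM in sh#2 and 10.5 FPKM in the control. GCNT2, which encodes the I-branching enzyme of glycans, was at 4.76 FPKM in sh#7, 9.70 FPKM in sh#2 and 6.68 FPKM in the control. GCNT2 was highest in sh#2, as HULC was by choice, and lowest in sh#7. Its log2 difference was 0.48 for sh#2 against the control. EEF1E1, a subunit of the aminoacyl-tRNA synthetase complex, was at 63.3, 82.0 and 60.4 FPKM in sh#7, sh#2 and the control. PAK1IP1, a gene of ribosome assembly, was at 38.1, 44.1 and 29.3 FPKM, with a log2 difference of 0.57 for sh#2 against the control, and TMEM14C, a mitochondrial membrane protein gene, was at 70.7, 77.2 and 68.4 FPKM. MUTED was highest in sh#7, at 11.7 FPKM, with 11.2 FPKM in sh#2 and 9.62 FPKM in the control.

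In all, 19 compared genes (0.172%) were higher in sh#2 by at least 2-fold than in both other libraries, HULC among them. By biotype 14 of these rows were protein-coding, HULC and LOC400043 were long non-coding, and SCARNA8, SNAR-G1 and VTRNA1-2 were short RNAs listed at 0 in sh#7 and the control. The 8 genes nearest to HULC in pattern, by Euclidean distance over the 3 centred log2(FPKM + 1) values, were SNAR-G1, SCARNA8, PCOLCE2, ATP10D, LOC400043, MAP7D2, SCARA3 and AMOT, at distances of 0.422 to 1.54. How many fragments lie behind the values of SNAR-G1, SCARNA8 and VTRNA1-2 is not known, so their places here are uncertain. LOC400043, whose current RefSeq symbol is LINC02381, was at 1.60 FPKM in sh#7, 6.47 FPKM in sh#2 and 0.486 FPKM in the control. PCOLCE2, an enhancer of procollagen processing, was at 0.166, 5.13 and 1.09 FPKM in the same order, and MAP7D2, a microtubule-associated protein gene, was at 2.72, 18.4 and 7.06 FPKM. In MAP7D2 the sh#7 level lay well below the control level, unlike in HULC.

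Genes linked to HULC in the literature mostly stayed within 2-fold. Of 10 HULC decay factors and deadenylase subunits, 0 were past 2-fold in sh#2 and 1 was past 2-fold lower in sh#7, where the background is 2.48% of compared genes (0.723% in sh#2). IGF2BP1 was at 37.2 FPKM in sh#7, 34.6 FPKM in sh#2 and 25.7 FPKM in the control. CNOT1, the scaffold of the deadenylase, was at 63.4, 48.6 and 43.9 FPKM. Both were highest in sh#7 and lowest in the control. The gene past 2-fold was CNOT8, a catalytic deadenylase subunit, at 19.6 FPKM in sh#7, 26.7 FPKM in sh#2 and 42.1 FPKM in the control. CNOT7, its close relative, was at 44.2, 45.7 and 45.5 FPKM.

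Of 18 cAMP and CREB genes, 16 were compared. On the log2(FPKM + 1) scale, none was past 2-fold in sh#2 against the control (0.506% of all compared genes were higher and 0.723% lower). In sh#7 it was 1 of 16 (2.35% higher and 2.48% lower). By plain FPKM, PRKACB, NR4A1 and PPARGC1A, given below, also differed by more than 2-fold between sh#7 and the control. PDE4D, a cAMP phosphodiesterase, was past 2-fold lower in sh#7, at 0.454 FPKM, with 1.65 FPKM in sh#2 and 2.41 FPKM in the control. CREB1 itself was at 7.83 FPKM in sh#7, 6.27 FPKM in sh#2 and 5.40 FPKM in the control. PRKACB, a catalytic subunit of protein kinase A that has been linked to HULC through miR-372, was at 3.30 FPKM in sh#7, 1.33 FPKM in sh#2 and 1.55 FPKM in the control. The 3 listed genes with the highest mean level were PRKAR1A, PRKACA and EP300. PRKAR1A, a regulatory subunit of that kinase, was at 92.4 FPKM in sh#7, 153.5 FPKM in sh#2 and 116 FPKM in the control. It was highest in sh#2, as HULC was by choice, so nothing is read from the match. PRKACA was at 51.5, 45.4 and 42.8 FPKM, and EP300, a histone acetyltransferase that CREB recruits, was at 17.7, 14.2 and 12.1 FPKM. The list median difference was 0.19 in sh#7 and 0.13 in sh#2, close to that of all genes. Some listed genes known to respond to CREB were lower in sh#7, and others were not. NR4A1, a nuclear receptor, was at 3.86 FPKM in sh#7, 7.72 FPKM in sh#2 and 8.62 FPKM in the control. PPARGC1A, a coactivator of gluconeogenic genes, was at 2.68, 3.15 and 5.601 FPKM. SIK1 was nearly level at 14.7, 14.2 and 14.2 FPKM, and CREM was at 6.77, 8.98 and 7.25 FPKM. FOS was at 0.364, 0.880 and 1.46 FPKM and PCK1, of gluconeogenesis, at 0.0347, 0.805 and 0.835 FPKM, both under the minimum mean and so not compared.

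**Figure D2:**
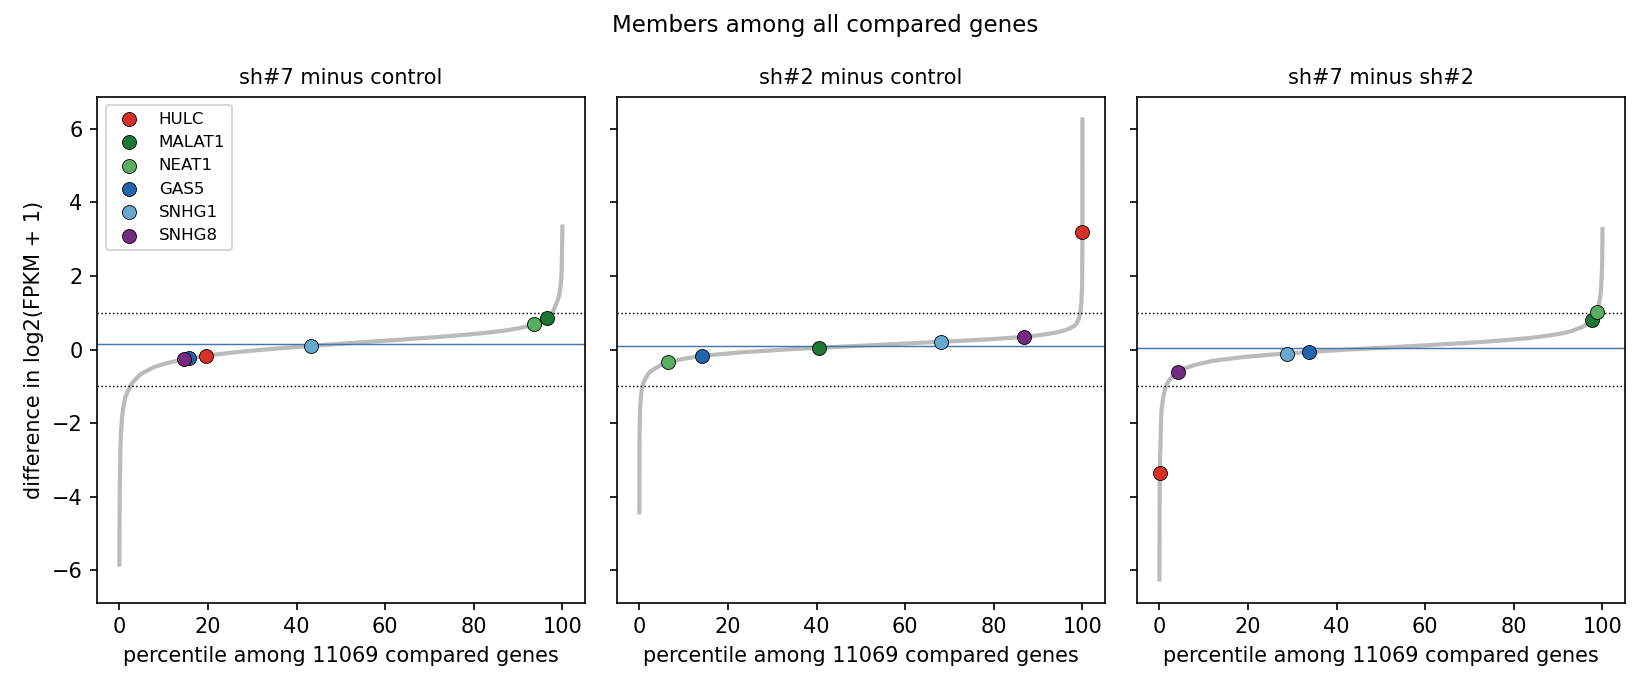
Each panel plots the difference in log2(FPKM + 1) of a comparison (vertical axis) against the percentile among 11069 compared genes (horizontal axis); the grey curve is all genes, the blue line their median, dotted lines mark 2-fold, and dots are the 6 RNAs. HULC lies at the upper end for sh#2 minus control and at the lower end for sh#7 minus sh#2, while MALAT1 and NEAT1 lie at the upper side for sh#7 minus control (percentiles 96.6 and 93.6).

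MALAT1 was at 21.5 FPKM in sh#7, 11.9 FPKM in sh#2 and 11.4 FPKM in the control. The sh#7 library was high and the other libraries were nearly level: the log2 difference of sh#2 against the control was 0.05, and -0.06 with median-of-ratios and -0.04 with upper-quartile scaling. The sh#7 level was 1.88 times the control level (95% interval 1.53 to 2.32) and the sh#2 level 1.04 times (0.819 to 1.31). Its log2 difference for sh#7 against the control, 0.86, stood at percentile 96.6 of compared genes, short of 2-fold. Among compared long non-coding RNAs this was rank 6 from the top.

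MALAT1 RNA is a known carrier of m6A, and methylation has been mapped by others in the stretch printed here, where it opens a hairpin for the reader HNRNPC. The longest annotated transcript, of 8708 nt, holds 13 copies of GGACT, written as DNA and searched on the sense strand only, the most common form of the sequence in which m6A is placed. That is 1.49 per kilobase, against a median of 0.895 over 873 long non-coding genes with a longest transcript of 4000 nt or more, of which 97.7% hold at least 1 copy. The 3 copies that lie closest together are shown with 10 bases on either side, with GGACT in capitals, on the plus strand of chromosome 11 in GRCh38. Their central adenosines are bases 2515, 2577 and 2611 of that transcript, and these files do not measure whether they are methylated.
MALAT1 site 1 (chr11:65500264-65500288): aaaatgtgaaGGACTttcgtaacgg
MALAT1 site 2 (chr11:65500326-65500350): tttttgcattGGACTttgagttaag
MALAT1 site 3 (chr11:65500360-65500384): taaatcctgaGGACTagcattaatt

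NEAT1 was at 61.2 FPKM in sh#7, 29.4 FPKM in sh#2 and 37.8 FPKM in the control. It was highest in sh#7, like MALAT1, but sh#2 lay below the control. The sh#7 level was 1.62 times the control level (95% interval 1.44 to 1.82), the sh#2 level was 0.779 times the control level (0.679 to 0.894), and the sh#7 level was 2.08 times the sh#2 level (1.83 to 2.35). The log2 difference of sh#7 against sh#2, 1.03, was just past 2-fold, as were 161 compared genes (1.45%) in that direction; with median-of-ratios scaling it was 0.97 and short of 2-fold. Against the control no member was past 2-fold in sh#7, where 260 genes (2.35%) were higher and 275 (2.48%) lower. NEAT1 has a short and a long isoform that share their beginning, with a longest annotated transcript of 22743 nt, and the single table row does not separate them. That transcript holds 19 copies of GGACT, or 0.835 per kilobase. The longest annotated transcripts of SNHG8, SNHG1 and GAS5 hold 4.46, 1.08 and 0.589 per kilobase. SNHG8, the densest of the members searched, was lower in sh#7 than in the control. A link between this motif and the levels was not tested.

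MALAT1 and NEAT1 lie next to each other on chromosome 11. FRMD8, the nearest compared gene on the NEAT1 side, was at 7.12 FPKM in sh#7, 5.86 FPKM in sh#2 and 4.15 FPKM in the control. It was highest in sh#7, as MALAT1 and NEAT1 were, and lowest in the control. For MALAT1 the annotation has a gene on the opposite strand, AP000769.2, and no source says whether counting used strand, so reads of the pair cannot be told apart.

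Paraspeckle protein genes were mostly somewhat above the control in both lines. Of 15, 14 had a positive difference in sh#7 and 12 in sh#2, which became 10 and 10 with median-of-ratios scaling. None was past 2-fold in either line. Their median difference was 0.32 in sh#7 and 0.17 in sh#2, against 0.16 and 0.10 for all compared genes. NONO and SFPQ encode core paraspeckle proteins. NONO was at 194.8 FPKM in sh#7, 190.1 FPKM in sh#2 and 204 FPKM in the control, and SFPQ was at 219, 191 and 156 FPKM. HNRNPK, which binds NEAT1, was at 397, 366 and 336 FPKM, and HNRNPH3, another RNA-binding protein, was at 188, 201 and 178 FPKM. TAF15, an RNA-binding protein of the FET family, had the largest difference of the list in sh#7, 0.73, at 258, 141 and 154 FPKM.

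GAS5 was at 104.5 FPKM in sh#7, 109 FPKM in sh#2 and 124 FPKM in the control. It was lower in both lines than in the control, by little. The sh#7 level was 0.844 times the control level (95% interval 0.783 to 0.909) and the sh#2 level 0.883 times (0.821 to 0.9495). GAS5 overlaps ZBTB37 and GAS5-AS1 on the opposite strand in GENCODE 29; ZBTB37 was at 1.22 FPKM in sh#7, 1.23 FPKM in sh#2 and 0.777 FPKM in the control, which is small beside GAS5. SERPINC1, the antithrombin gene that follows on chromosome 1, was at 12.0 FPKM in sh#7, 44.7 FPKM in sh#2 and 43.4 FPKM in the control.

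SNHG1 was at 37.6 FPKM in sh#7, 40.6 FPKM in sh#2 and 35.01 FPKM in the control, the narrowest range of the 6 RNAs. The highest level was 1.16 times the lowest. Its log2 difference for sh#7 against the control was 0.10, and -0.07 with median-of-ratios scaling and -0.01 with upper-quartile scaling, so it has no set direction there. Its neighbour SLC3A2, the heavy chain of amino acid transporters, was at 162 FPKM in sh#7, 158 FPKM in sh#2 and 103 FPKM in the control. WDR74, on the other side, was at 53.1, 45.1 and 43.6 FPKM.

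SNHG8 was at 88.7 FPKM in sh#7, 136 FPKM in sh#2 and 107 FPKM in the control. It was highest in sh#2 and lowest in sh#7. HULC was also highest in sh#2, by choice and at a far larger size. The counting interval of the HULC sh#7 ratio to the control spans 1, so no shared order is read. The sh#7 level was 0.652 times the sh#2 level (95% interval 0.605 to 0.704), 0.831 times the control level (0.767 to 0.901), and the sh#2 level was 1.27 times the control level (1.19 to 1.37). The log2 difference of sh#7 against sh#2 was -0.61, at percentile 4.18 of compared genes; 168 genes (1.52%) were lower there by at least 2-fold. Among the compared genes nearest on either side, METTL14, whose protein partners METTL3 in placing m6A, had 15.1 FPKM in sh#7, 13.5 FPKM in sh#2 and 10.1 FPKM in the control, and CAMK2D, a calmodulin-dependent kinase gene, was at 14.8, 14.4 and 11.1 FPKM.

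Translation-linked RNAs that begin with a run of pyrimidines, called TOP RNAs, include many snoRNA host transcripts, so the start regions of these genes are shown. RefSeq promoter sequence on GRCh38.p14 was matched for 4 of the 6 members (MALAT1, GAS5, SNHG1 and SNHG8); HULC and NEAT1 had no entry. Capitals mark a run of at least 5 pyrimidines (C or T) that begins with C within 5 bases of the annotated start, and TATAA placed 45 to 16 bases before the start, both on the sense strand. Each line gives 35 bases before the start and 30 from it on.
SNHG8 (chr4:118278727-118278791, plus strand): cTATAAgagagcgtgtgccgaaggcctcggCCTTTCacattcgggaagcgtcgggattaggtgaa
SNHG1 (chr11:62855856-62855920, minus strand): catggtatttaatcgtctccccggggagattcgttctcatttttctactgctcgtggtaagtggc
GAS5 (chr1:173869016-173869080, minus strand): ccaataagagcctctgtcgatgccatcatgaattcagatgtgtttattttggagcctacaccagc
SNHG5 (chr6:85678704-85678768, minus strand): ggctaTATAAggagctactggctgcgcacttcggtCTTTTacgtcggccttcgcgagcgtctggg
SNHG12 (chr1:28581844-28581908, minus strand): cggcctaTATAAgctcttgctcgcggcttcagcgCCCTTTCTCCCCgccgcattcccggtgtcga
ZFAS1 (chr20:49278607-49278671, plus strand): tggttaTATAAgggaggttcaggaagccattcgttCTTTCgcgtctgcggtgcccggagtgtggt

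SNHG8 has both motifs in this window, and SNHG1 and GAS5 have neither by these letters. For SNHG1 and GAS5 only 1 start each was searched, although 25 and 29 transcripts are annotated in GENCODE 29, and shorter or broken runs were not marked. The search therefore does not show that their transcripts lack a pyrimidine start. MALAT1 has 2 annotated starts, not printed here: the first has the run without TATAA, and the second has TATAA without the run. MALAT1 was higher in sh#7 than in the control. SNHG5, SNHG12 and ZFAS1 are shown beside them as hosts with both that were lower in sh#7 than in the control, chosen after their values were seen. Motif and lower level go together in them by selection, so no link between the motifs and the levels is read from these lines. Of 17 listed host genes with a sequence, 10 have the pyrimidine run and 6 have TATAA, against 21.1% and 4.10% of 35116 promoters of 300 bases. A match is a description of the letters and not of a working site.

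The host transcripts as a group were not shifted in 1 direction. Of 20 listed host genes, 19 were found in the table, some under older symbols, and 17 were compared. None was past 2-fold in any of the 3 comparisons. Their median difference was 0.09 in sh#7 and 0.09 in sh#2 against the control, beside 0.16 and 0.10 for all compared genes; with median-of-ratios scaling it was -0.07 and -0.03. SNHG5, the most abundant long non-coding row of the table, was at 586 FPKM in sh#7, 858 FPKM in sh#2 and 806 FPKM in the control. SNHG6 was at 215, 227 and 232 FPKM and ZFAS1 at 199.6, 217 and 253 FPKM. SNHG12 had the most negative difference of the list in sh#7, -0.74, at 9.70, 12.8 and 16.9 FPKM, and SNHG17 the most positive, 0.48, at 16.1, 14.8 and 11.2 FPKM. Members of this family thus lay on both sides of the control in sh#7, under the values as deposited.

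**Figure D3:**
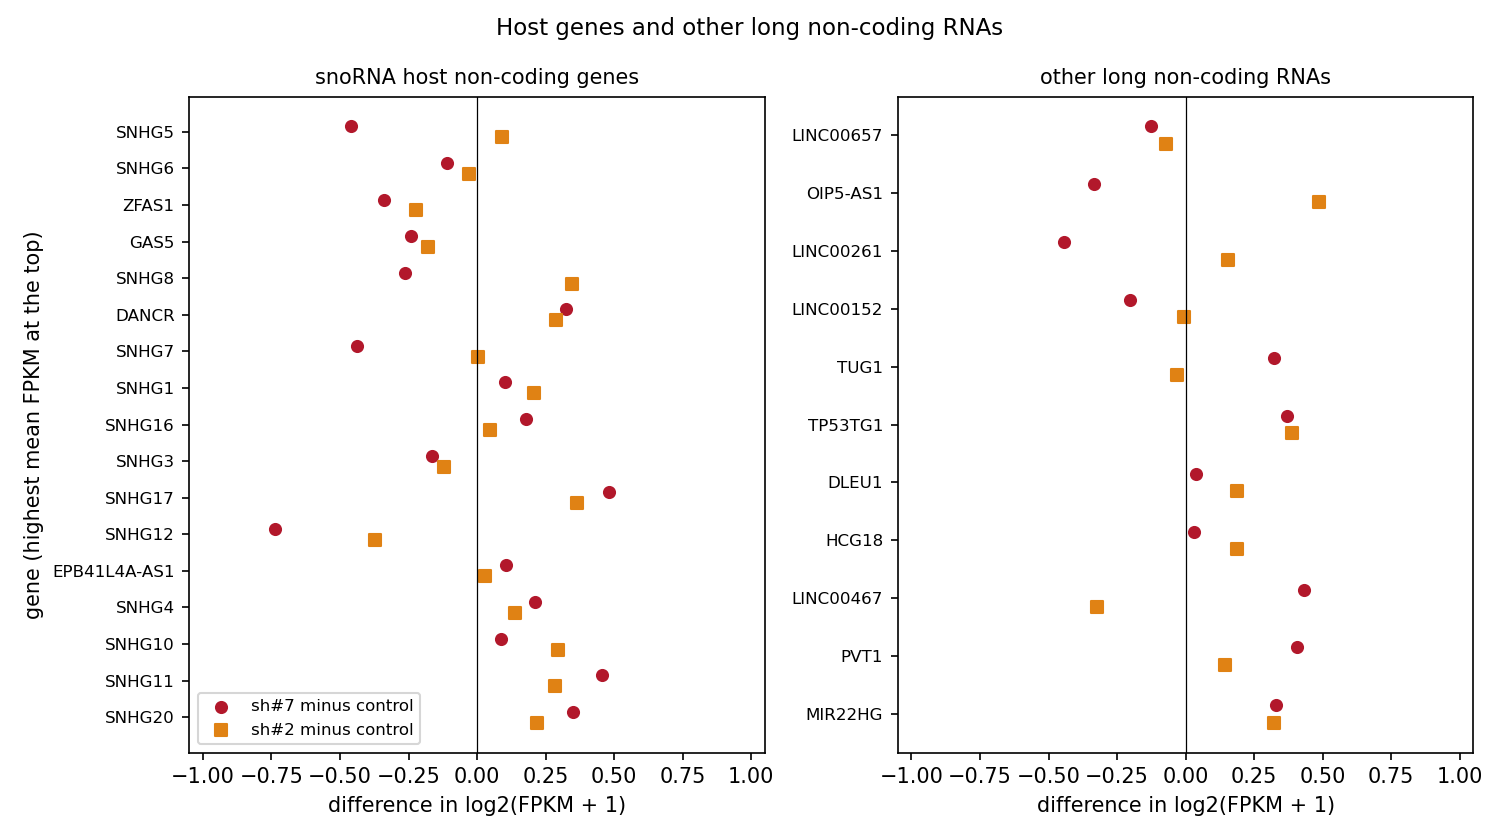
Difference in log2(FPKM + 1) (horizontal axis) of 17 compared snoRNA host genes and 11 other long non-coding RNAs (rows, the highest mean level at the top), with red circles for sh#7 minus control and orange squares for sh#2 minus control, 1 library each. All points lie within 2-fold, and the comparisons share the control library.

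TOP mRNAs outside the ribosome, which carry the same kind of start, were below the control throughout in sh#7. Of 15, all had a negative difference in sh#7 as deposited and under both scalings, and 11 had one in sh#2 (14 under each scaling). None was past 2-fold. Their median difference was -0.16 in sh#7 and -0.15 in sh#2, beside 0.16 and 0.10 for all compared genes. TPT1, a growth-related protein also called TCTP, was at 3842 FPKM in sh#7, 4009 FPKM in sh#2 and 4616 FPKM in the control. EEF1A1, the elongation factor that brings aminoacyl-tRNA to the ribosome, was at 1089, 1422 and 1619 FPKM. NPM1, a nucleolar protein, was at 1387, 1613 and 1552 FPKM.

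Genes of nonsense-mediated decay and the exon junction complex lay above the control in both lines, by small amounts. Of 14, all had a positive difference in both lines as deposited, and 13 in sh#7 and 11 in sh#2 did so with median-of-ratios scaling. None was past 2-fold, and the median difference was 0.38 in sh#7 and 0.28 in sh#2, beside 0.16 and 0.10 for all compared genes. Relative to those medians 13 lay above in sh#7 and 12 in sh#2. UPF1, the helicase at the centre of the pathway, was at 39.1 FPKM in sh#7, 41.8 FPKM in sh#2 and 32.5 FPKM in the control. MAGOH and EIF4A3, core members of the junction complex, were the most abundant: MAGOH had 171, 193 and 157 FPKM in sh#7, sh#2 and the control, and EIF4A3 had 164, 171 and 134 FPKM. CASC3, also of the complex, was at 58.6, 46.2 and 44.5 FPKM. SMG5, which helps to recycle UPF1, was at 42.8, 26.2 and 24.3 FPKM and had the largest difference in sh#7, 0.79.

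Genes of the snoRNP proteins, which bind the RNAs released from these hosts, showed a median difference of 0.35 in sh#7 and 0.26 in sh#2. The medians of all compared genes were 0.16 and 0.10. Of 11, 8 had a positive difference in each line, 8 lay above the all-gene median in each line, and none was past 2-fold. FBL, the methyltransferase of box C/D particles, was at 335 FPKM in sh#7, 357 FPKM in sh#2 and 381 FPKM in the control. NOP56, its partner, was at 293, 278 and 210 FPKM, and the shared protein NHP2L1 was at 141, 123 and 110 FPKM. FBL was thus lowest and NOP56 highest in sh#7.

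**Figure D4:**
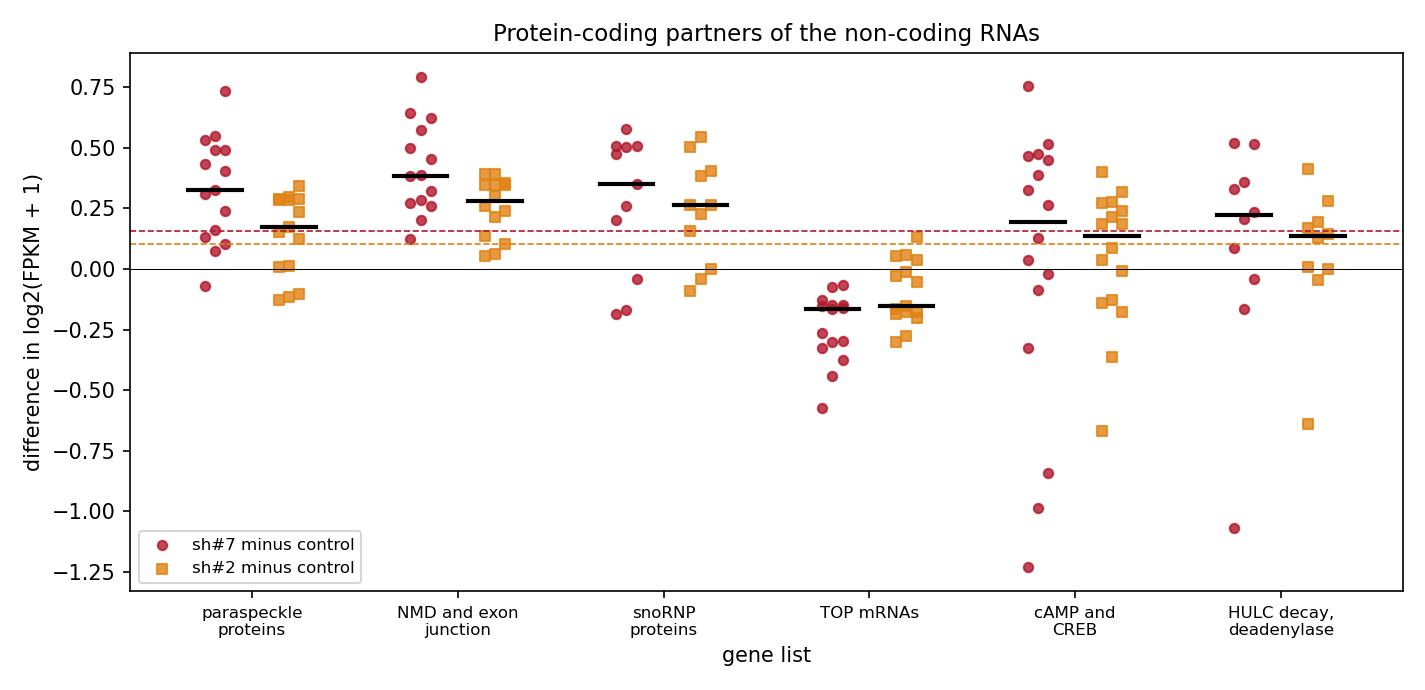
Difference in log2(FPKM + 1) from the control (vertical axis) for each compared member of 6 protein-coding lists (horizontal axis), with red circles for sh#7, orange squares for sh#2, black bars for list medians and dashed lines for the median of all compared genes in the same colours. TOP mRNAs lie below 0 in sh#7 and decay factors above it.

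Among 11 other compared long non-coding RNAs none was past 2-fold in any comparison. Several stand under older symbols in the table. LINC00657, now called NORAD, was at 48.7 FPKM in sh#7, 50.7 FPKM in sh#2 and 53.3 FPKM in the control. OIP5-AS1 was at 25.4, 45.6 and 32.3 FPKM and LINC00261, an RNA beside the hepatic factor gene FOXA2, at 20.3, 31.4 and 28.1 FPKM. Both were highest in sh#2 and lowest in sh#7, as SNHG8 was. The share of all compared genes in this order was not computed, so nothing is read from it. TUG1 was at 21.5, 16.6 and 17.0 FPKM.

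Over all 232 compared genes annotated as long non-coding, 2 were higher and 2 lower by at least 2-fold in sh#7 than in the control, where 2.35% and 2.48% of all compared genes were. In sh#2 against the control 2 were higher, HULC being 1 of them by choice, and 4 lower, beside 0.506% and 0.723% of all compared genes. In sh#7 against sh#2 7 were higher, NEAT1 among them, and 2 lower, HULC and LOC400043, beside 1.45% and 1.52%. All these counts are on the log2(FPKM + 1) scale, which understates the change of low genes, and much of this class is low. In the control, 4.39 FPKM was already place 91 of the 232. The counts therefore do not show that the class is steadier than other genes. Of the class, 148 had a difference under the all-gene median in sh#7, and 146 did in sh#2. HULC had the highest and LOC400043 the next highest difference of this class in sh#2. PCNA-AS1, named after its values were seen, was at 95.6 FPKM in sh#7, 40.4 FPKM in sh#2 and 164 FPKM in the control, and it was among the 4 lower in sh#2. It lies opposite PCNA, and without known strand use its reads and those of PCNA cannot be told apart.

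Of 11 short structural RNAs only 4 were compared, and their values were scattered. RPPH1, the RNA of RNase P, was at 2.56 FPKM in sh#7, 5.30 FPKM in sh#2 and 2.06 FPKM in the control. VTRNA1-2, a vault RNA, had 75.2 FPKM in sh#2 with 0 listed for sh#7 and the control, whereas SCARNA22 was listed at 0 in sh#7 and sh#2 and was at 20.5 FPKM in the control. SCARNA2 was at 3.24, 3.06 and 1.80 FPKM in sh#7, sh#2 and the control. How many fragments lie behind values of such short RNAs is not known.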

How the data were processed

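RNA-seq values came from 3 Hep-G2 libraries, 1 per group. The authors deposited a table of FPKM values per gene symbol; the build was hg19 and the tools were Cufflinks 2.2.1, STAR 2.4.0j and HTSeq, per the submitters' processing notes, whose order and roles were not stated there. With 1 library per group and no counts, no test was run and no count model was fitted. Differences of log2(FPKM + 1) were computed in Python 3.11.15 with pandas 2.3.3 over the 11069 genes whose mean reached 1 FPKM, and 2-fold was used as a size. The calculation was tested on simulated data. Depth was estimated from genes with 1 transcript longer than 800 nt in GENCODE 29, which is built on GRCh38, within a window around an assumed depth. Intervals are exact (Clopper-Pearson), at 95%, on estimated fragments of a 0.3 kb transcript. Symbols were matched to RefSeq (GRCh38.p14) by current symbol, gene number or unique synonym for 21221 of 21572 rows; its order gave neighbours. The members and lists were chosen with earlier results of these data known. Named genes were FTO, the members, the 8 nearest to HULC in pattern, of each list the 3 highest and those past 2-fold, and the nearest compared gene on each side of a member, of which 2 are not reported here; others were named after their values were seen. Alternatives were a pseudocount of 0.1, no minimum or a minimum mean of 5 FPKM, median-of-ratios and upper-quartile scaling, and 1.5-fold.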

Additional observations from a re-analysis of the deposited data

Results flagged for a closer look

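In 3 of the 6 RNAs the sh#7 and sh#2 libraries lay on opposite sides of the control as deposited; with 1 library in each group this was not tested. With either scaling it was 5 of 6, since MALAT1 (0.69 in sh#7 and -0.06 in sh#2 with median-of-ratios scaling) and SNHG1 (-0.07 and 0.09) joined them. Both joined through values near 0. As deposited, the counting intervals of the MALAT1 sh#2 ratio (0.819 to 1.31) and the SNHG1 sh#7 ratio (0.941 to 1.23) to the control span 1. The share of all compared genes on opposite sides was not computed, so neither count is read as a trait of these RNAs. On the log2(FPKM + 1) scale HULC stood at -0.17 in sh#7 and at 3.19 in sh#2 relative to the control, which puts sh#7 at -3.35 relative to sh#2. HULC was chosen on this difference, so its values are a description, and the counting interval of its sh#7 ratio to the control (0.567 to 1.29) spans 1. NEAT1 differed by 0.68 in sh#7 and -0.35 in sh#2, with 1.03 between the lines. SNHG8 differed by -0.26 in sh#7 and 0.35 in sh#2, with -0.61 between the lines.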

How the results depend on the processing

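No paired analysis was possible because only 1 library stands in each group, so no replicate could be left out either. The 3 differences of HULC stayed within their counting interval under every setting that was run. The minimum mean does not enter the difference of a member, so those settings could not move it. The number of compared genes past 2-fold depended on the settings. As deposited, 260 genes were higher and 275 lower in sh#7 than in the control. With median-of-ratios scaling these were 193 and 373, and with upper-quartile scaling 213 and 334. The near balance of the 2 directions thus holds for the deposited scaling only. With a pseudocount of 0.1, 394 genes were higher in sh#7 than in the control, 106 higher and 138 lower in sh#2 than in the control, and 252 higher in sh#7 than in sh#2. With a minimum mean of 5 FPKM, where fewer genes were compared, these were 146, 24, 49 and 82, and 7 genes were higher in sh#2 than in both other libraries. At 1.5-fold 1064 genes were higher in sh#7 than in the control and 684 lower; for sh#2 against the control 295 were higher and 301 lower; for sh#7 against sh#2 569 were higher and 504 lower; 61 exceeded both other libraries in sh#2. Among the other values of the members, 83 of 90 stayed within their interval or, for percentiles of HULC, within 1 percentage point. That count includes the differences under the minimum mean settings, which were fixed in advance. The intervals are also wide for the longer RNAs, so the count is not a measure of robustness. The sign turned under both scalings in MALAT1 for sh#2 against the control (-0.06 and -0.04, with 0.05 as deposited) and in SNHG1 for sh#7 against the control (-0.07 and -0.01, with 0.10 as deposited). Median-of-ratios scaling lowered GAS5 in sh#7 to -0.42 and NEAT1 to 0.51, and the percentile of HULC in sh#7 was 11.9 with no minimum mean. If the estimated depth holds, counting does not limit the abundant members, but the spread between cultures is not measured here at all.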
